A study of Mus musculus with 7 samples.

Results

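The genes of Notch signalling examined here are 3 receptors (Notch1, Notch2 and Notch3), 3 ligands (Jag1, Jag2 and Dll1), the nuclear effector Rbpj, the targets Hes1 and Hey1, and Lfng, whose product modifies the receptors. They were taken by name from the platform annotation: every probe set whose single gene symbol was 1 of these 10 names was used. All 10 genes were measured, by 17 probe sets, among 12393 genes on the array. Mouse primary keratinocytes, the epithelial cells of the epidermis, had been transfected with small interfering RNA (siRNA) against Trp63 (5 arrays, replicates 1, 2, 3, 4 and 7) or with a non-specific control siRNA (2 arrays, replicates 5 and 6), and total RNA was collected 48 h later. Strain, age and genotype of the mice are not given in the labels, nor do they say if the replicates came from separate cultures. The p-values thus cover the spread between these samples alone, which may be technical. With 2 control arrays, the number of arrays limits the precision of every value.

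In Notch signalling, a ligand on one cell engages a receptor on its neighbour, the receptor is cleaved, and its freed intracellular part enters the nucleus and joins the DNA-binding protein encoded by Rbpj to switch on targets such as the repressor genes Hes1 and Hey1. In the epidermis Notch1 is known for promoting the exit of basal keratinocytes into the suprabasal layers and for its mutual antagonism with p63, the transcription factor encoded by Trp63. The question here is how the messenger RNA of each part of this pathway differed when Trp63 was silenced.

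Genes of the pathway moved in both directions, while neither target gene passed the test. Notch1, Dll1 and Jag2 fell by factors of 2.47, 2.05 and 1.36, and Rbpj and Notch2 rose by 1.37 and 1.23. A gene was represented by its brightest probe set and tested with limma on log2(intensity + 16), with Benjamini-Hochberg adjustment over the 22626 probe sets and a call at 0.05. By this rule 3 of the 10 genes were lower (8.57% of all 12393 genes were), 2 were higher (8.03% of all genes) and 5 did not pass. The median log2 difference of the 10 genes was -0.10, against -0.04 over all genes. The groups did not overlap for 6 of the 10 genes (38.3% of all genes): the 5 Trp63 siRNA values lay below both controls for 4 (24.0% of all genes) and above both for 2 (14.3% of all genes). Without control replicate 5 the count of higher genes was 0, and without control replicate 6 it was 1 with 2 lower.

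The targeted gene was lower at each of its probe sets. The brightest of 3 Trp63 probe sets read 541, 519, 457, 504 and 492 with Trp63 siRNA and 1447 and 1683 with control siRNA, 32.1% of the control intensity (log2 difference -1.61, SE 0.09, limma adjusted p = 1.0e-05). The other 2 probe sets, both dim, read 69.4% and 66.5% of control (log2 differences -0.49 and -0.54), and the mean of all 3 gave -0.88, so the extent of silencing depends on the probe set. Median intensity over all probe sets was 207 to 214 per array. The keratinocyte identity of the cultures was checked on 9 measured markers of 10 listed, of which 8 reached the median of all probe set means (213). Krt14 read 14413 to 17165 and Krt5 10843 to 14623 on the 7 arrays, among the brightest signals, while Krt15 was dim at 118 to 174. All 9 markers were called lower with Trp63 siRNA (8.57% of all genes were). Their summed intensity was 35259 to 38822 with Trp63 siRNA and 49476 to 49738 in controls. Krt1, Krt10 and Ivl are among these 9 and return below as differentiation genes. None of 4 endothelial, 2 of 5 immune and 2 of 6 fibroblast markers reached the median of all probe set means (213). Summed fibroblast markers read 997 to 1152 with Trp63 siRNA and 884 to 1019 in controls, and 1 of them, Col1a1, was called higher (265 to 308 against 207 and 198). Summed immune markers read 999 to 1089 against 1116 to 1124, with 1, Tyrobp, called lower. The part of other cells in the results was not tested. A melanocyte signal was present, with 7 of 8 measured markers (9 listed) reaching that median and a summed intensity of 6886 to 12036 in Trp63 siRNA arrays and 6724 to 10116 in controls, and none of the 8 passed the test. The arrays fell into a set of high mean melanocyte level (Trp63 siRNA replicates 1 and 2 and control replicate 5, 9.55 to 9.67 on the log2 scale) and a set of low level (Trp63 siRNA replicates 3, 4 and 7 and control replicate 6, 9.10 to 9.15). Fibroblast marker means were higher in the first of these sets, at 7.47 to 7.59 against 7.31 to 7.45, but the ranges nearly meet. Their largest gap sets control replicate 6 alone apart. Keratinocyte marker means were also higher in the high set within each siRNA group. They were 10.58 and 10.59 against 10.28 to 10.40 with Trp63 siRNA, and 11.39 against 11.30 in controls. The sets are named for melanocyte markers only, and what separates them was not tested. Each holds a single control array, so differences within a set rest on that array. Bacterial spike transcripts, added to check labelling and hybridisation, were higher in Trp63 siRNA replicates 2, 3 and 7 (9.17 to 9.27) than on the other 4 arrays (8.90 to 8.97), both controls included.

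The start site windows of genes that moved are shown for the letters that Rbpj and p53 family proteins are known to bind. RefSeq (GRCm38.p6) windows from 250 bases before to 50 bases after the annotated start were matched for 8 of the 10 genes, in 10 windows. The target genes Hes1 and Hey1 had no window, so the motifs were not looked for there. Windows are shown for the 3 genes that fell, for Rbpj and Notch2, which rose, and for Lfng, whose window holds the longer of the motifs. They are chr2:26503773-26504072 on the minus strand (Notch1), chr17:15375774-15376073 minus (Dll1, 1 of 2 windows), chr12:112929446-112929745 minus (Jag2), chr3:98013288-98013587 plus (Notch2), chr5:53590236-53590535 plus (Rbpj, the second of 2 overlapping windows) and chr5:140607091-140607390 plus (Lfng). Each is written 5′ to 3′ on the gene's strand, and capitals mark the Rbpj core TGGGAA on either strand and the decamer response element unit of the p53 family.
Notch1: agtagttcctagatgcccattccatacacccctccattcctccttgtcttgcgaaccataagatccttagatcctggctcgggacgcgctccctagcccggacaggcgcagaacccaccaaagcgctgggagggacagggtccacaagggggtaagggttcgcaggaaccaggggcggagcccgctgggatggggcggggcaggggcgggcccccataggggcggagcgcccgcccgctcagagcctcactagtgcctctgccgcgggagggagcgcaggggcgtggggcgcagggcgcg
Dll1: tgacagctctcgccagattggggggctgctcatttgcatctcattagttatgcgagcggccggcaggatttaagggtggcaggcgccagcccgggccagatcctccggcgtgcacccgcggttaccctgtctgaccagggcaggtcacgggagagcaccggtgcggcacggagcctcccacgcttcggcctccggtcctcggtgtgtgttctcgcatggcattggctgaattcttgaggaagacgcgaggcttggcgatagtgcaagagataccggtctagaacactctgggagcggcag
Jag2: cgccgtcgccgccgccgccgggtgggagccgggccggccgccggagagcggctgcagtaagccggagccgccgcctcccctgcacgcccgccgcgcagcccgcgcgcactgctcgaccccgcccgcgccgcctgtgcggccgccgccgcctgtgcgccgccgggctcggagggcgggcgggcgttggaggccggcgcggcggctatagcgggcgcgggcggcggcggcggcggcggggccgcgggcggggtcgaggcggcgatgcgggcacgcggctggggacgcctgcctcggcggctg
Notch2: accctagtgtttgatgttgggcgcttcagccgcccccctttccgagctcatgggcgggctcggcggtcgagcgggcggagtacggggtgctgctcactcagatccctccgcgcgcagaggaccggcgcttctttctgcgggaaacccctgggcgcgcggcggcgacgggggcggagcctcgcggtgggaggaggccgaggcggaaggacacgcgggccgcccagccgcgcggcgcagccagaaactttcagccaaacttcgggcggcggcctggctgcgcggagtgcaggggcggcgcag
Rbpj: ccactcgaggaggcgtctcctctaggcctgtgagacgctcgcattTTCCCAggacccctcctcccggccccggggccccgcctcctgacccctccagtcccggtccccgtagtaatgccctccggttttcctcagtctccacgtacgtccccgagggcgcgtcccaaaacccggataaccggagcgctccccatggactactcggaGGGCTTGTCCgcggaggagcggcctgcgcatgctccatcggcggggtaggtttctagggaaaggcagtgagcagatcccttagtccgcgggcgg
Lfng: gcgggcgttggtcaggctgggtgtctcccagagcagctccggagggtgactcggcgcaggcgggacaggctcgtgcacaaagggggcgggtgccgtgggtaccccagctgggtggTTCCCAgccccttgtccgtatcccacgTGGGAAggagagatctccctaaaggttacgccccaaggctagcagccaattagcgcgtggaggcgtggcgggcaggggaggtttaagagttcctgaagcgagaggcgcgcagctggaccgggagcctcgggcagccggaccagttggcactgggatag
TGGGAA on either strand was present in 3 of the 10 windows, both of Rbpj and that of Lfng, a share of 30% beside 25.6% of all 32851 windows. The 2 overlapping Rbpj windows share 1 site, 65 bases before the first start and 205 before the second, which counts in both. By gene, the matches lie in Rbpj and Lfng alone of the 8 with windows. The longer GTGGGAA, which contains TGGGAA, occurred in 6.38% of windows and in 1 of the 10, that of Lfng, 109 bases before the start. The Rbpj window shown held TGGGAA on the opposite strand 205 bases before its start and a p53 family decamer, which 8.36% of windows held, 44 bases before it. These matches describe letters only and say nothing of binding.

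Among the receptors, Notch1 fell in every Trp63 siRNA array. Its brighter probe set read 1017, 879, 709.6, 802 and 782 with Trp63 siRNA and 2007 and 2157 with control siRNA. Replicate 1 was the highest silenced array and still lay far below the lower control. The group means were 838 ± 117 (SD, n = 5) and 2082 ± 106 (SD, n = 2), a log2 difference of -1.31 (95% interval -1.58 to -1.03, limma adjusted p = 0.000186). The dimmer Notch1 probe set read 530.1, 482, 402, 407 and 438 against 722 and 877 and fell by 0.80 in log2 units (SE 0.12, limma adjusted p = 0.0024). Both probe sets therefore placed all 5 silenced arrays below both controls, with the change of the brighter one larger by 0.50. The brighter probe set differed by -1.07 among the 3 arrays of high melanocyte level and by -1.48 among the other 4. For the dimmer probe set these differences were -0.50 and -1.05. In bulk RNA, fewer cells expressing a gene and less RNA per cell cannot be told apart.

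Notch2, the receptor gene that moved the opposite way, rose by a smaller step. The brighter probe set read 992, 988, 1037, 994 and 1099 with Trp63 siRNA against 818 and 831, with all 5 silenced arrays above both controls. Its log2 difference was 0.30 (SE 0.07, limma adjusted p = 0.0159). It did not pass when control replicate 5 (limma adjusted p = 0.108) or control replicate 6 (0.0948) was left out, or when the spike sets were fitted as a block (0.092). The dimmer Notch2 probe set leaned the other way, at 292, 278, 289, 290 and 243 against 327 and 292, and did not pass (log2 difference -0.15, limma adjusted p = 0.275). In the mean of both probe sets the Notch2 difference was 0.08 (limma adjusted p = 0.361), so the rise rests on 1 probe set.

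Notch3, a receptor known best from vascular smooth muscle and also expressed in suprabasal epidermis, did not pass with either probe set. The brighter one, whose _s_at suffix marks probes shared by several transcripts, read 349.7, 363, 284, 297 and 302 against 291 and 309. Replicates 1 and 2 lay above both controls and the other 3 between or below them. The difference of 0.08 (95% interval -0.15 to 0.30, limma adjusted p = 0.63) was 0.28 among the 3 arrays of high melanocyte level and -0.07 among the other 4. The dimmer probe set, below the median of all probe set means, read 110 to 141 against 121 and 135 (limma adjusted p = 0.887).

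**Figure D1:**
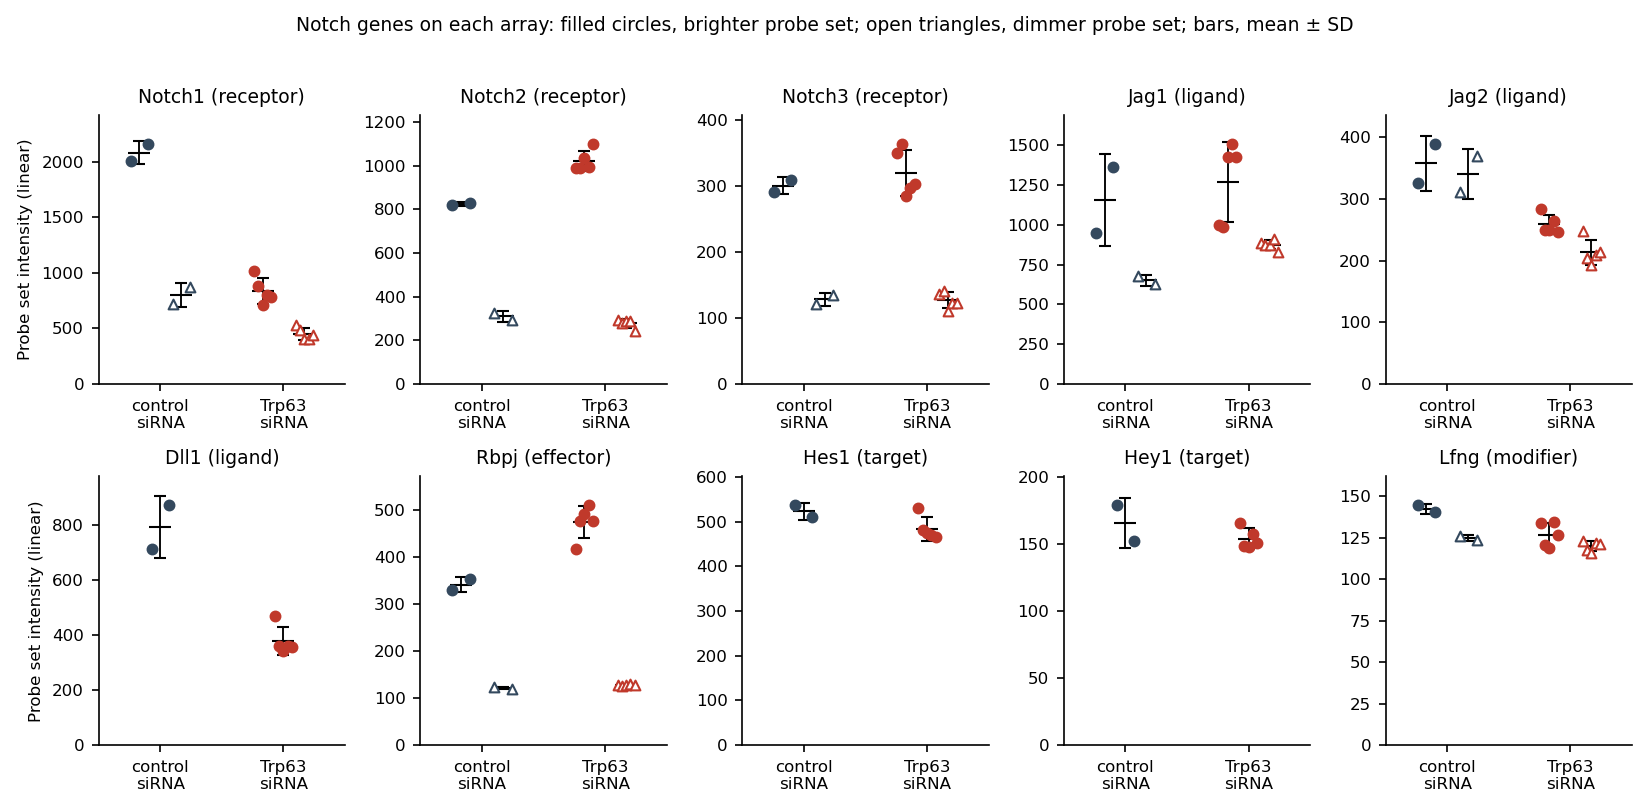
Probe set intensity on a linear axis from 0 for each of the 10 genes, with 2 control siRNA arrays (dark) and 5 Trp63 siRNA arrays (red). Filled circles are the brighter probe set, open triangles the dimmer one, and bars the mean ± SD. Notch1 and Dll1 fall from 2082 and 791 to 838 and 378, while Hes1 and Hey1 overlap between groups.

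The fall of Notch1 was set against the change of the other receptors within each array. The change of Notch1 minus that of Notch2 was -1.61, and minus that of Notch3 it was -1.39. Each gave p = 0.0476 in an exact two-sided permutation test, the smallest p that 21 splits of 7 arrays allow, and 0.0833 after adjustment over the 7 pairs compared. Notch2 and Notch3 differed by 0.22 in their change (exact permutation p = 0.238, adjusted 0.278). With 21 splits, adjustment over 7 pairs can reach 0.05 only where all 7 are at the smallest p, so the adjusted values could hardly pass and say little about these pairs.

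Of the ligands, Dll1 showed the largest difference. Its single probe set read 469.5, 361, 343, 361 and 355 with Trp63 siRNA and 711 and 871 with control siRNA. Replicate 1 stood above the other silenced arrays, yet all 5 lay below both controls. The means were 378 ± 51.7 (SD, n = 5) and 791 ± 113 (SD, n = 2), a log2 difference of -1.04 (95% interval -1.32 to -0.75, limma adjusted p = 0.0008). It was -0.76 among the 3 arrays of high melanocyte level and -1.27 among the other 4. Dll1 encodes a Delta-type ligand associated with clusters of basal cells in human epidermis.

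Jag2, a Serrate-type ligand gene, fell at both of its probe sets. The brighter read 284, 249, 249.7, 265 and 247 against 327 and 389 (log2 difference -0.44, SE 0.08, limma adjusted p = 0.00765). The dimmer read 248, 204, 192, 209.8 and 214 against 312 and 369 (log2 difference -0.64, SE 0.10, limma adjusted p = 0.00263). Groups did not overlap in either. Among the arrays of high melanocyte level the brighter differed by -0.28 and the dimmer by -0.45. Among the arrays of low level they differed by -0.59 and -0.80. With control replicate 6 left out the brighter probe set did not pass (limma adjusted p = 0.0962), nor did it with the spike sets fitted as a block (0.0512), whereas the dimmer one passed under every alternative tried, with a highest limma adjusted p of 0.0459.

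Jag1, the other Serrate-type ligand gene and itself a known Notch-responsive gene, gave a different picture from each probe set. The brighter read 1001, 988, 1425, 1506 and 1426 with Trp63 siRNA and 949 and 1361 with control siRNA. These values fall into a low set (Trp63 siRNA replicates 1 and 2 and control replicate 5) and a high set (the other 4 arrays), the same sets as the melanocyte marker level in reverse. The groups overlapped and the difference was 0.13 (95% interval -0.32 to 0.59, limma adjusted p = 0.689). It was 0.07 among the 3 arrays of high melanocyte level and 0.09 among the other 4, and its sign turned to -0.12 when control replicate 5 was left out (0.39 without control replicate 6). The part of melanocytes or of other cells in these values was not tested.

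The dimmer Jag1 probe set did not follow those sets. It read 883, 875, 871, 909 and 831 against 676 and 625, with all 5 silenced arrays above both controls. Its log2 difference was 0.42 (SE 0.07, limma adjusted p = 0.00329), at 0.37 and 0.47 in the respective melanocyte sets, and it did not pass when control replicate 6 was left out (limma adjusted p = 0.0534). The changes of the 2 Jag1 probe sets differed by -0.28 (exact permutation p = 0.333, over splits that take no account of the melanocyte sets), and in each set the brighter one changed less, at 0.07 against 0.37 and 0.09 against 0.47. Each set holds a single control array, so these differences have no control spread. Jag1 is therefore counted as not passing, since its brighter probe set stands for the gene, although 1 of its 2 probe sets rose.

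**Figure D2:**
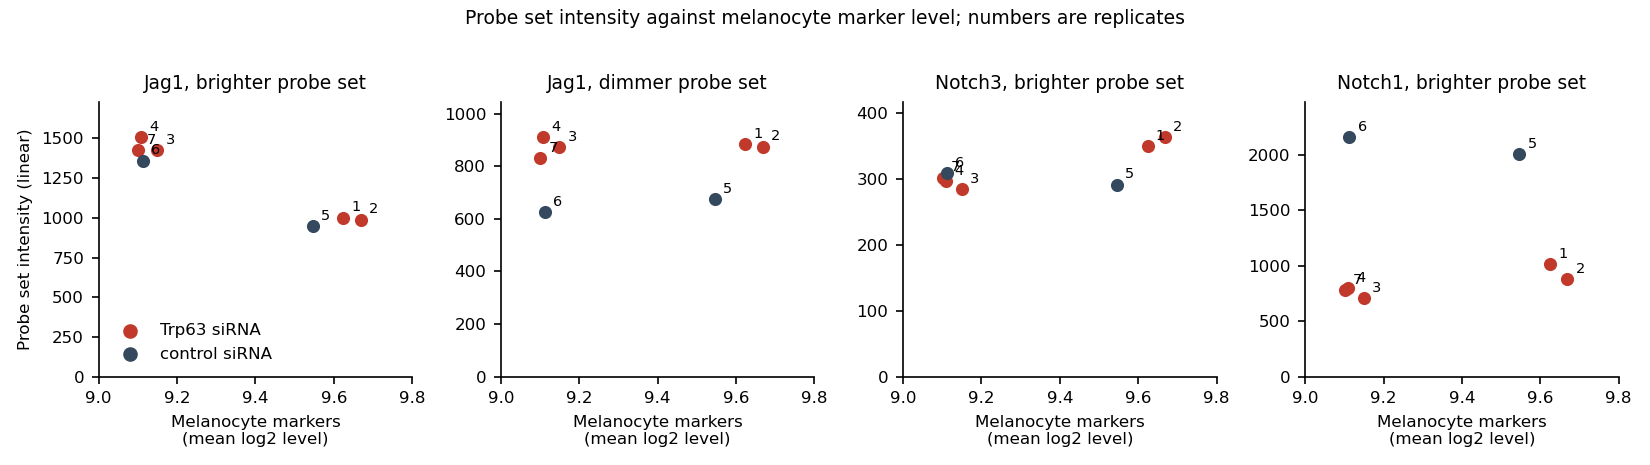
Linear intensity of 4 probe sets (vertical axes from 0) against the mean log2 level of 8 melanocyte markers on each array, labelled by replicate (red, Trp63 siRNA; dark, control siRNA). The brighter Jag1 probe set reads 949 to 1001 on the 3 arrays of high marker level and 1361 to 1506 on the other 4, whereas the dimmer Jag1 probe set and Notch1 separate by siRNA.

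Within arrays, the change of Dll1 was larger than that of Jag2 by 0.60 and differed from that of Jag1 by 1.17 (exact permutation p = 0.0476 for each, adjusted 0.0833). Jag1 and Jag2 differed by 0.57 in their change (exact permutation p = 0.0952, adjusted 0.133).

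Rbpj, which encodes the DNA-binding partner of the cleaved receptors and whose promoter window is printed above, rose at its brighter probe set. That probe set read 416, 475, 489.7, 509 and 477 with Trp63 siRNA and 329.6 and 352 with control siRNA. All 5 silenced arrays lay above both controls, with replicate 1 the lowest of them. The means were 473 ± 34.8 (SD, n = 5) and 341 ± 15.7 (SD, n = 2), a log2 difference of 0.45 (SE 0.08, limma adjusted p = 0.00675), which did not pass when control replicate 5 was left out (limma adjusted p = 0.0731). The dimmer Rbpj probe set, below the median of all probe set means, read 125 to 129 against 123 and 119.7 and did not pass (log2 difference 0.06, limma adjusted p = 0.331). In the mean of both probe sets the Rbpj difference was 0.25 (limma adjusted p = 0.0122), so its size depends on the probe set.

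The target genes of the pathway did not pass. Hes1, a basic helix-loop-helix repressor gene, read 531, 480.1, 475, 469.7 and 464 with Trp63 siRNA and 537 and 509.6 with control siRNA. Replicate 1 lay between the controls and the other 4 silenced arrays below them, and the difference was -0.11 (95% interval -0.28 to 0.06, limma adjusted p = 0.353). The interval allows a fall of up to 0.28 and no rise above 0.06. Hey1, a related repressor gene, read 166, 149, 148, 158 and 151 against 179 and 153, below the median of all probe set means, with overlapping groups (difference -0.09, 95% interval -0.25 to 0.06, limma adjusted p = 0.389, and 0.01 in place of -0.09 without control replicate 5). Hes1 and Hey1 differed by -0.02 in their change (exact permutation p = 0.81).

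Lfng encodes the Fringe enzyme that adds sugars to Notch receptors and alters their response to Delta and Serrate ligands. Its brighter probe set was dim and read 134, 121, 119, 134 and 127 against 145 and 140.4, all 5 silenced arrays being below both controls. The difference of -0.15 (SE 0.05) did not pass (limma adjusted p = 0.0915), and passed without Trp63 siRNA replicate 1 (limma adjusted p = 0.0422). The dimmer Lfng probe set, at 116 to 123 against 126 and 123, differed by -0.05 (limma adjusted p = 0.393).

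**Figure D3:**
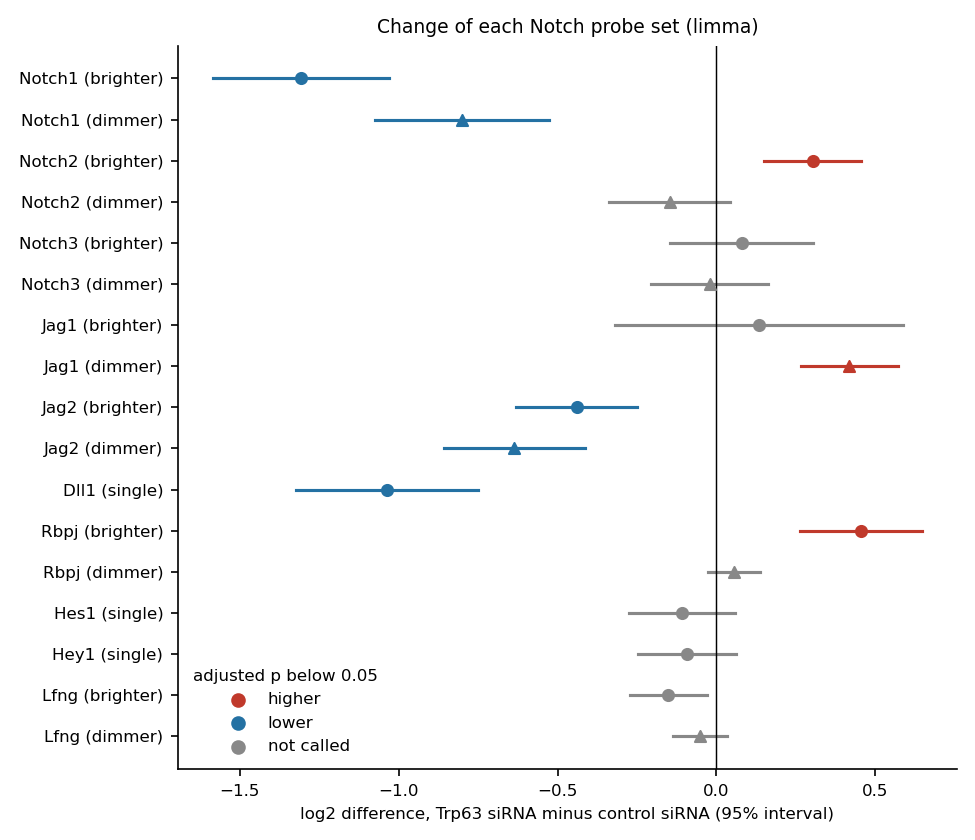
Log2 difference between Trp63 siRNA and control siRNA with its 95% interval for each of the 17 probe sets, coloured by the call at a limma adjusted p of 0.05 (blue lower, red higher, grey not called). Differences run from -1.31 (Notch1) to 0.45 (Rbpj), with 5 probe sets lower, 3 higher and 9 not called.

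Counted by probe set, 5 of 17 were lower (8.16% of all 22626 probe sets were) and 3 were higher (7.83%). Groups did not overlap for 12 (36.6% of all probe sets), of which 4 lay above both controls (14.2%) and 8 below both (22.4%). Where a gene had 2 probe sets, both fell for Notch1 and Jag2, and 1 of the 2 passed for Notch2, Jag1 and Rbpj. The change of the 2 probe sets was compared within arrays for these 7 genes after the values were seen. For 6 of them the exact permutation p was the smallest possible, 0.0476, and 0.0556 after adjustment over the 7. With Jag1 at an exact permutation p of 0.333, no adjusted value could reach 0.05, so the adjusted values say little here.

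Of 48 other genes listed for the pathway, 41 were measured, 17 of them below the median of all probe set means. Among the 41, 3 were lower, 2 higher and 36 did not pass, a share of calls near that of all genes (16.6% in either direction). Their median log2 difference was -0.03, against -0.04 over all genes. At an unadjusted p below 0.05 there were 11 of the 41, where 31.8% of all genes reached that level. Without any 1 of Trp63 siRNA replicates 2, 3, 4 and 7 or control replicate 5, the count of lower genes was 1, and without replicate 7 or either control the count of higher genes was 1.

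Kat2b, an acetyltransferase gene whose product joins the Notch activator complex, rose most of these. It read 593, 844, 799.5, 775 and 758 with Trp63 siRNA and 437 and 448 with control siRNA, with no overlap. Its log2 difference was 0.74 (SE 0.12, limma adjusted p = 0.00376). In the mean of all its probe sets the Kat2b difference was 0.46 (limma adjusted p = 0.00842), so its size depends on the probe set. Fbxw7, which encodes the ubiquitin ligase subunit that marks the cleaved receptor for degradation, fell. Its values were 372, 378, 388, 397 and 403 against 563 and 660.2 (log2 difference -0.63, SE 0.08, limma adjusted p = 0.000797), again with no overlap. Both genes passed under every alternative tried.

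Weaker calls were made for Numb, Poglut1 and Dlk1. Numb, an inhibitor of Notch that acts on receptor trafficking, read 555, 578, 516, 487 and 537 against 417 and 424 (log2 difference 0.33, limma adjusted p = 0.0201). With control replicate 5, control replicate 6 or Trp63 siRNA replicate 7 left out, Numb did not pass (limma adjusted p = 0.128, 0.112 and 0.0517). Poglut1, which encodes the enzyme that adds glucose to the receptors' EGF repeats, read 376 to 442 against 491 and 550.3 (log2 difference -0.31, limma adjusted p = 0.0375). Dlk1, a Delta-like gene without the usual ligand function, was dim at 102 to 106 against 117 and 112 (log2 difference -0.12, limma adjusted p = 0.0382). Neither Poglut1 nor Dlk1 passed with control replicate 5 or 6 removed, Poglut1 at limma adjusted p = 0.0728 and 0.252 and Dlk1 at 0.255 and 0.0797, nor with any 1 of Trp63 siRNA replicates 2, 3, 4 and 7 removed (limma adjusted p between 0.0518 and 0.0817). With the spike sets as a block, Numb, Poglut1 and Dlk1 did not pass (limma adjusted p = 0.105, 0.138 and 0.0883). Dlk1 also did not pass with median centring (0.0683), quantile normalisation (0.0922) or no variance trend (0.0669).

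By role, the groups are too small to be read against the shares over all genes (16.6% called, 31.8% at an unadjusted p below 0.05). Limma called none of the 7 measured genes of receptor cleavage (2 at an unadjusted p below 0.05), among them the gamma-secretase subunit gene Psenen (1940 against 1687, limma adjusted p = 0.15) and the protease gene Furin (507 against 409.8, limma adjusted p = 0.101). It also called none of the 6 further targets Hes5, Hes6, Hes7, Hey2, Heyl and Nrarp (none at an unadjusted p below 0.05), whose differences lay between -0.12 and 0.07. Hes5, Hes7, Hey2 and Heyl were below the median of all probe set means, Hey2 at 74.2 being the dimmest. Nrarp, a feedback inhibitor gene induced by Notch, read 783 and 719 in Trp63 siRNA replicates 1 and 2, 477 to 534 in the other 3, and 689.6 and 605 in the controls. Its groups overlapped (limma adjusted p = 0.702), and the silenced arrays followed the sets of high and low melanocyte level. Receptor Notch4 was dim (90.1 against 87.8, limma adjusted p = 0.606), and the ligand gene Dll4 read 213 against 249.9 (limma adjusted p = 0.132).

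**Figure D4:**
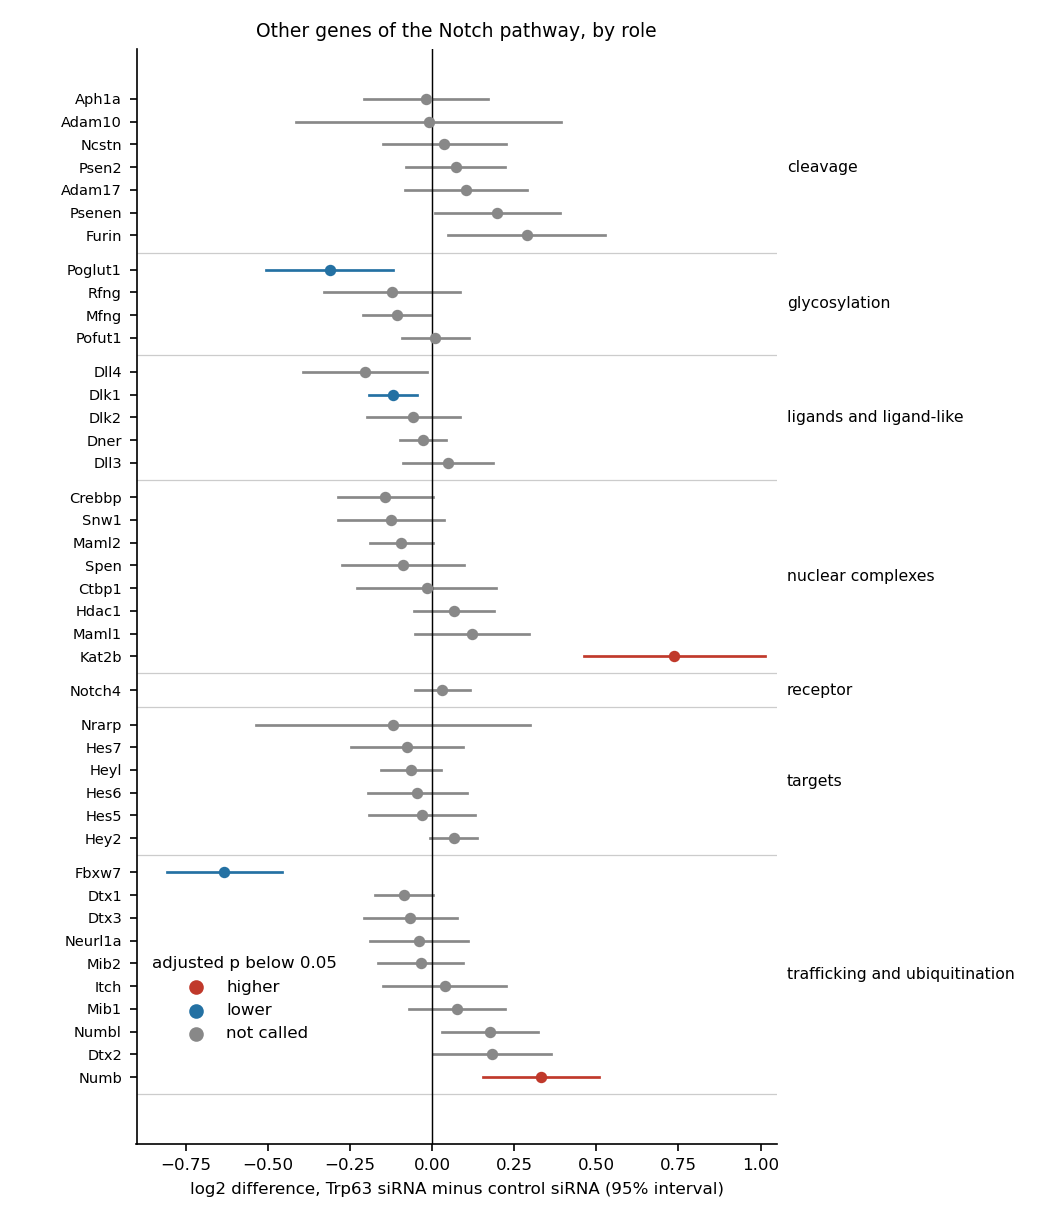
Log2 difference between Trp63 siRNA and control siRNA with its 95% interval for 41 other genes of the pathway, grouped by role and coloured by the call at a limma adjusted p of 0.05. Kat2b (0.74) and Fbxw7 (-0.63) lie farthest from 0, and no gene of receptor cleavage or among the further targets is called.

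Differentiation genes that Notch1 is known to promote in keratinocytes were read beside the receptor. The suprabasal keratin genes Krt1 and Krt10 and the envelope gene Ivl had log2 differences of -1.79, -1.53 and -1.49 (limma adjusted p = 0.00761, 0.00187 and 0.000773). Krt1 did not pass when control replicate 5 was left out (limma adjusted p = 0.0861) or when the spike sets were fitted as a block (0.0602). Krt10 read 589 and 643 in Trp63 siRNA replicates 1 and 2 and 381 to 413 in the other 3, against 1620 and 1189.6 in the controls. Krt1 read 1063 and 1126 in replicates 1 and 2 and 415 to 624 in the other 3, against 2951 and 2178. Ivl read 235 and 251 in replicates 1 and 2 and 186 to 208 in the other 3, against 830 and 485. For Krt10, Krt1 and Ivl alike the order followed the melanocyte sets within each group. Cdkn1a, the gene of the cell cycle inhibitor p21, read 4073 to 4511 against 3754 and 3945 and did not pass (log2 difference 0.13, limma adjusted p = 0.118).

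The genes most alike to the leading member of each class over the 7 arrays were found among 6891 genes whose mean reached the median over all probe sets, by Pearson's r of log2 values. For Notch1 they were Fxyd3 (r = 0.999), Pycard (0.998) and Ckmt1 (0.997), and 654 genes had r above 0.9. Those closest to Dll1 were Vkorc1, Echs1 and Rcan1 (r = 0.997 each), with 700 genes above 0.9. Rbpj was followed by Dlg1 (0.996), Nbea (0.99) and Norad (0.988), with 285 genes above 0.9. All values share the same 7 arrays in 2 groups, so any gene with a clear group difference scores high.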

How the data were processed

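RNA of 7 mouse keratinocyte samples had been extracted with Trizol, labelled with biotin and hybridised to Affymetrix arrays, per the labels. Each deposited value is a linear intensity of 1 probe set. The authors' probe summary, background step and normalisation are not given in the sources used here, and detection calls were not used. Medians of log2 values differed by 0.04 between arrays, below a tolerance of 0.1, so values were used as deposited. Of 22690 probe sets, 64 controls were left out. The platform annotation gave 20380 of the 22626 tested 1 symbol, 691 several and 1555 none, and 20351 matched a current gene by Entrez ID.

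The test was limma 3.58.1 in R 4.3.3 (lmFit, eBayes with variance trend) on log2(intensity + 16), which understates the change of dim genes. Fold changes are on that scale. Every adjusted p is limma's unless an exact permutation test is named. The procedure was run on simulated data with independent noise for each probe set. It called 40 of 50 changes of 0.5 log2 units, 93 of 100 of 1, 49 of 50 of 2 and 7 of 22426 unchanged probe sets. The simulated arrays held no melanocyte or spike sets, so the run cannot show how such sets affect the calls. No filter was applied. Arrays were split into sets at the largest gap of the mean level of melanocyte markers or bacterial spikes. Alternatives covered normalisation, a pseudocount of 1 or 64, removal of probe sets under the 25th or 50th percentile, variance moderation, array weights, the probe set of a gene, both splits as blocks, and each array left out. With 1 control left, it is assumed to vary like the other group.

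The members and lists were chosen with earlier results of these data known. Named were all members, Trp63, other pathway genes past the threshold, the differentiation genes Krt1, Krt10, Ivl and Cdkn1a and the 3 genes most alike to the leading member of each class. Psenen, Furin, Nrarp, the other further targets, Notch4 and Dll4 were named after their values were seen. Plots used Python 3.11.15 and matplotlib 3.10.9.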

Additional observations from a re-analysis of the deposited data

Results flagged for a closer look

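In 4 of 27 probe sets examined, 1 Trp63 siRNA array stood apart from the other 4 by more than Dixon's critical value of 0.71 for the gap divided by the range, a rule that flags about 1 group in 20 by chance. Replicate 1 was highest for Dll1 (469.5 against 343 to 361, ratio 0.857), for Hes1 (531 against 464 to 480.1, ratio 0.767) and for Cdkn1a (4511 against 4073 to 4174, ratio 0.769). Replicate 7 was lowest for the dimmer Notch2 probe set (243 against 278 to 292, ratio 0.711). The flagged Dll1 value still lay below both controls.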

How the results depend on the processing

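No paired analysis was possible because the 2 groups share no replicate number. The count of Notch genes lower, 3, was 2 to 4 when single arrays were left out and 2 when the spike sets were fitted as a block, and 3 under all other alternatives. The count higher, 2, was 0 to 2 when single arrays were left out, 1 with the mean of all probe sets and 1 with the spike block. Among the other pathway genes, the 3 lower became 2 with median centring, quantile normalisation, no variance trend or a filter, and 1 to 3 were lower and 1 to 2 higher with arrays left out. With the spike block 1 was lower and 1 higher, and with the melanocyte block 4 were higher. Over all probe sets 3618 passed, 1374 to 5502 with arrays left out (1374 without control replicate 6, 2013 without control replicate 5 and 5502 without Trp63 siRNA replicate 1), 1920 with the spike block and 5458 with the melanocyte block. The cause was not tested. The spike block was chosen after seeing the data: both controls lie on 1 side of that split, so it compares them with Trp63 siRNA replicates 1 and 4. Notch1 and Dll1 passed under every alternative tried, with highest limma adjusted p of 0.00609 and 0.0184. Dim probe sets (Hey1, Lfng, the dimmer ones of Notch3 and Rbpj, and Hes5, Hes7, Hey2 and Heyl) limit what can be said of those genes.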

Other observations

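Helix-loop-helix partners and corepressors, which work with or against the Hes and Hey repressors, were listed after the results of the Notch genes were known. Of 14 measured, 4 were higher with Trp63 siRNA (8.03% of all genes were), 1 was lower (8.57% of all genes) and 9 did not pass. Over all genes 16.6% were called in either direction. The median log2 difference of the 14 was 0.08, against -0.04 over all genes. Id3, which encodes an inhibitor that binds helix-loop-helix factors without contacting DNA, read 1287, 1142, 1264, 1189.6 and 1204 against 825 and 742 (log2 difference 0.63, SE 0.07, limma adjusted p = 0.000649). Its relative Id4 read 273 to 295 against 225 and 195 (0.41, limma adjusted p = 0.00387), which did not pass when control replicate 6 was left out (limma adjusted p = 0.0617).

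Id2 went the opposite way, at 318 to 401 against 476 and 508 (-0.43, limma adjusted p = 0.0153), and did not pass when control replicate 5 (limma adjusted p = 0.0666) or 6 (0.131) was left out or when the spike sets were fitted as a block (0.0543). Tle5, a short relative of the Groucho corepressors, read 923 to 1054 against 617 and 579.7 (0.71, SE 0.08, limma adjusted p = 0.000348). Tle1, a full-length Groucho gene, read 271 to 316 against 245 and 227 (0.28, limma adjusted p = 0.0409) and did not pass with control replicate 5 or 6 removed (limma adjusted p = 0.108 and 0.242), nor with any 1 of Trp63 siRNA replicates 2, 3, 4 and 7 removed (0.054 to 0.0748) or the spike sets as a block (0.103). Id1 (-0.23, limma adjusted p = 0.0533) and Tle3 did not pass.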
